A study of Mus musculus with 2 samples.

Results

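G2/M-phase tumor nuclei of the CIC::DUX4 sarcoma mouse are described here as nuclei that carry the fusion's target genes and transcripts of late cell cycle genes together. Of 72338 nuclei deposited from 8 tumors, 5008 met the rule, which is 8.33% of the 60121 nuclei past the depth and mitochondrial filters and 13.01% of the 38492 filtered nuclei that passed the tumor gate. They were chosen by 2 scores read from their own counts. The tumor score summed the UMIs of Etv1, Etv4, Etv5, Shc3 and Shc4 per 10000 UMIs and had to reach 80. The cycling score summed Top2a, Mki67, Cenpf, Cenpe, Kif11, Aspm, Tpx2, Ccnb2, Anln and Bub1 in the same way and had to reach 20, with at least 3 of the 10 genes detected. A UMI (unique molecular identifier) marks a single captured RNA molecule.

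The untreated group held 4 tumors of dFLEx CDS +/- mice that received no drug, and the labels name no vehicle. The second group held 4 dFLEx CDS tumors that had received Minnelide over 21 days at a dose of 0.42 mg/kg, and for it the labels carry no genotype field. Per the study, the treated tumors it sequenced had responded either well or poorly to the drug. Response was not used here, so this group mixes both outcomes. Per the study's methods, both groups share a Rosa26 knock-in of CIC::DUX4 behind the CAG promoter that needs both Cre and FLP to become active, and plasmids for both recombinases were electroporated into hind limb muscle, so host muscle, vessels and immune cells remain in each sample. Minnelide releases triptolide in the body, a compound that binds the XPB helicase (Ercc3) of TFIIH and blocks initiation by RNA polymerase II. The labels give no age of the animals. Each of the 8 count matrices was treated as 1 tumor, since the series design gives 4 tumors a group, and tumor numbers follow file order and are only names.

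In G2, a cell with copied DNA builds up the kinases, cyclins and structural proteins needed to divide, and in mitosis it condenses its chromosomes, attaches them to spindle microtubules at kinetochores and splits in cytokinesis. Many of these genes are held off in early phases and switched on together in G2 by the MuvB, B-MYB and FOXM1 proteins, which act at promoters with a CHR element, and by NF-Y, which binds CCAAT boxes. Genes of DNA replication are switched on earlier, at the G1/S border, by E2F factors. CIC::DUX4 turns the repressor CIC into an activator of ETS genes (Etv1, Etv4, Etv5) and ERK feedback genes.

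The promoters of 3 genes that stood higher in G2/M-phase nuclei are shown because they hold both elements. They are 3 of the 4 with the smallest p of the class comparison described below among genes with both motifs. Each run is the 250 bases just before the annotated start of the gene's canonical transcript (GENCODE M39, GRCm39), read 5′ to 3′ on the gene's strand, and it holds no exon of that transcript. Capitals mark TTTGAA (the CHR core) and CCAAT on either strand, which read TTCAAA and ATTGG on the reverse. Arhgap19, a GTPase-activating protein, has its window at chr19:41790503-41790752 on the minus strand. Fam83d, which carries a casein kinase to the spindle, lies at chr2:158609763-158610012 on the plus strand, and Ckap5, a microtubule polymerase, at chr2:91356852-91357101 on the plus strand.
Arhgap19: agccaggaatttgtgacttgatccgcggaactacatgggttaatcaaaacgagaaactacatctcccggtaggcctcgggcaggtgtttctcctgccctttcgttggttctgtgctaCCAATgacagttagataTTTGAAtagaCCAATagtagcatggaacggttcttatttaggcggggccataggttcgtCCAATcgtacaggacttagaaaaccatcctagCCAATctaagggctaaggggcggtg
Fam83d: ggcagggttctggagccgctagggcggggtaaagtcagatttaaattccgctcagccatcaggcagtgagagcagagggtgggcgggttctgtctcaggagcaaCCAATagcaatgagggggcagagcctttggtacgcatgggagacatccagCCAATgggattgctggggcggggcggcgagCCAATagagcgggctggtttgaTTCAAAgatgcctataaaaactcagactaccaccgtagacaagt
Ckap5: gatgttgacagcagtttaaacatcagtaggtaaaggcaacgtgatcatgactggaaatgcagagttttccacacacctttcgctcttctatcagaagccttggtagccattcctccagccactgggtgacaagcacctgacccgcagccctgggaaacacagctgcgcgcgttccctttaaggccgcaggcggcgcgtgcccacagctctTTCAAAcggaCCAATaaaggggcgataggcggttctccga
The CHR core of Ckap5 lay 40 to 35 bases before the start, with a CCAAT box 30 to 26 bases before it. Arhgap19 carried 4 CCAAT boxes and Fam83d 3. Such a match is a description and no measure of binding.

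Across all 21770 protein-coding promoters of this length, 15.57% held TTTGAA, 36.5% held CCAAT and 6.063% held both. Among the 73 measured genes of 4 mitotic lists (kinases and cyclins, kinetochore, spindle, cytokinesis), 24.66% held TTTGAA, 52.05% CCAAT and 17.81% both. Among the 817 promoters of genes higher in G2/M-phase than in the remaining tumor nuclei the shares were 17.01%, 47.12% and 9.425%, against 12.17%, 35.69% and 4.496% of the 12211 promoters of genes tested in that comparison. The E2F-type octamer TTTCCCGC stood in 3.672% of the same 817 promoters, in 0.8801% of the 909 of genes lower there and in 1.621% of those tested. Among the 129 promoters of genes at least 2-fold higher there it was in 0.7752%, and among the 73 mitotic ones in 1.37%. It stood in 4.99% of the 501 promoters of genes lower in G2/M-phase than in S-phase nuclei, in 1.663% of the 481 of genes higher than in S-phase nuclei and in 1.144% of all promoters. The CIC octamers TGAATGAA and TGAATGGA were in 1.222% and 0.9141% of all promoters and in 0 of the 73 mitotic ones. All 5 motifs were searched on both strands, and TTTGAA and the CIC octamers can share letters where one runs into the other.

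Depth and the libraries that stand apart bear on every value below. Totals per tumor ran from 18487409 to 73211599 UMIs, and untreated tumor 4 was the shallowest, with a median of 883 per deposited nucleus against 2329 to 4031 elsewhere. Of 28 tumor pairs, 4 shared 49 to 132 barcodes, each pair joining the 2 groups, and 2 barcodes were held by G2/M-phase nuclei of both tumors of a pair. The labels give no run, so run and treatment cannot be told apart. Marker genes of other cell types were present in nearly all of these nuclei, since 96.88% carried UMIs of at least 2 markers of 1 other type. Tumor-gated nuclei of all classes were alike in this. Those without 2 markers of any other type numbered 0 of 3422 in untreated tumor 1 and 270 of 3462 in untreated tumor 4. They numbered 64 of 9617 in Minnelide tumor 1 and 367 of 8360 in Minnelide tumor 3. In untreated tumor 1 the G2/M-phase nuclei held 1989 CPM (UMI counts per 1000000 UMIs of the class) of 6 endothelial markers, against 316 to 664 in the other 7 tumors. The same tumor held 2057 CPM in S-phase and 2622 in remaining tumor nuclei, so the level was not particular to G2/M phase. Its nuclei under the tumor gate and outside the cycling gate held 2035 CPM. The study itself reports endothelial-like tumor cells in 1 of its sequenced tumors. Summed myocyte markers were 6996 CPM in untreated tumor 1 and 6913 in Minnelide tumor 2, against 518 to 4556 elsewhere. Whether these nuclei are doublets, nuclei with free RNA or tumor cells of a mixed state was not tested.

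The markers given for these nuclei are part of the rule, so their levels describe the choice and test nothing. Top2a, the topoisomerase that untangles sister chromatids, averaged 841 ± 142 CPM (SD, n = 8 tumors) in G2/M-phase nuclei, 304 in S-phase tumor nuclei and 229 in the remaining tumor nuclei. Mki67, which coats mitotic chromosomes, averaged 397, 139 and 115 CPM, and Cenpf, a kinetochore protein, 278, 43.2 and 59.8. Aspm, a spindle pole protein, stood at 149, 27.4 and 35.2 CPM, and the kinetochore motor Cenpe at 367, 67.5 and 86.0. The G2/M-phase nuclei were the highest class for each of these 5 genes in every tumor.

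**Figure D1:**
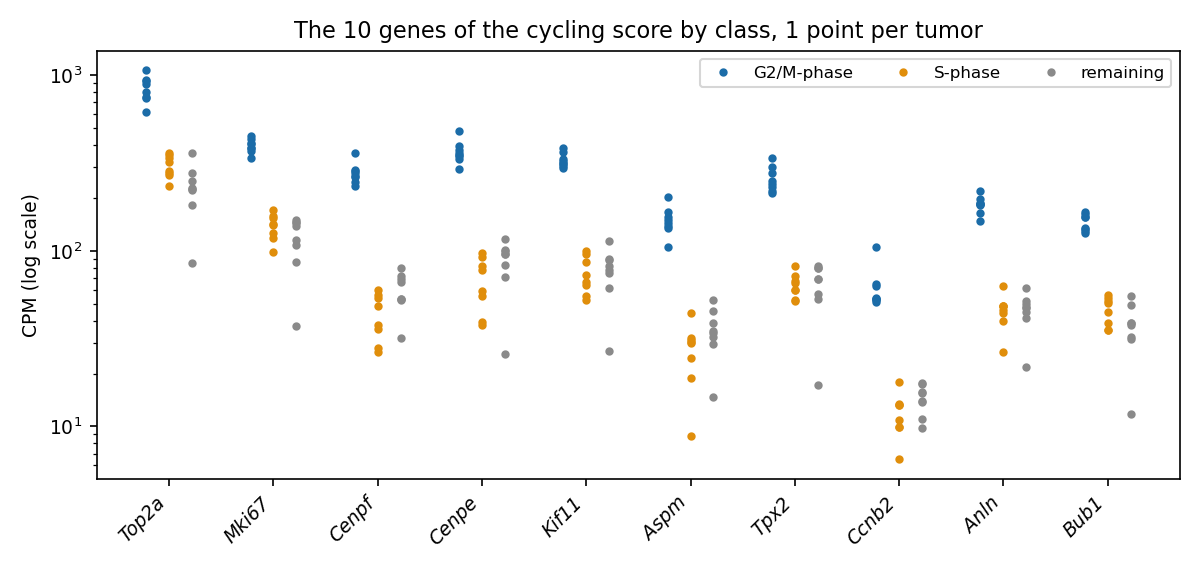
Level in CPM (log axis) of the 10 genes of the cycling score in G2/M-phase (blue), S-phase (orange) and remaining (grey) tumor nuclei, with 1 point per tumor. The blue points lie above the other classes for every gene because the rule read these genes.

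The tumor side of the rule set these nuclei apart from nuclei under the tumor gate, because the gate read these genes, and not from other tumor-gated nuclei. Nuclei under the gate are not stroma alone. Outside the cycling gate, their median tumor score ran from 15.4 in untreated tumor 1 to 49.5 in Minnelide tumor 3. Etv4 ran from 2032 to 3843 CPM over the tumors in G2/M-phase nuclei and from 1859 to 3824 in the remaining tumor nuclei. In nuclei under the tumor gate and outside the cycling gate it ran from 571 to 943 CPM. Etv1 averaged 4985 ± 878 CPM in G2/M-phase and 4935 ± 957 in remaining tumor nuclei. Shc3 was lowest in untreated tumor 1, at 1404 CPM, and lay between 2141 and 2463 in the other 7.

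The cycling score had no gap at its threshold, so the class is a range and not a separate population. The median score was 7.791 in tumor-gated nuclei and its 90th percentile 23.3, against 27.19 in the chosen nuclei, whose highest was 130.9. Of the chosen nuclei, 878 scored under 22, while 1108 tumor-gated nuclei with 3 genes scored from 18 to under 20. A further 393 reached 20 with fewer than 3 genes. On the tumor score, 194 chosen nuclei lay under 88 and 146 cycling nuclei lay from 72 to under 80. The median chosen nucleus had 5 of the 10 genes, and 92 had all 10. By tumor this median ran from 3 in untreated tumor 4, the fewest the rule allows, to 7 in untreated tumor 1. A cycling score of 0 was found in 20.17% of the remaining tumor nuclei.

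Nuclei under the tumor gate are counted in this paragraph without the 950 that passed the cycling gate. Thinned to 1000 UMIs a nucleus, a median of 57.27% of G2/M-phase nuclei per tumor had a Top2a UMI. The medians were 19.3% of the remaining tumor nuclei and 12.1% of nuclei under the tumor gate. For Mki67 the medians were 35.67%, 12.41% and 8.828%. The rule read both genes, so these shares describe the choice. Cdk1, the master kinase of mitotic entry and no part of the rule, was detected in 7.742% of G2/M-phase nuclei, 3.357% of remaining and 1.94% of those under the gate. Detection of a single gene was thus partial in each class.

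The share of tumor nuclei in G2/M phase was higher in the Minnelide group on average, but the groups overlapped. Untreated tumors 1 to 4 held 2.34%, 10.2%, 10.6% and 8.72% of their tumor-gated nuclei in this class. Minnelide tumors 1 to 4 held 16.9%, 6.59%, 17.6% and 16.1%. Minnelide tumors 1, 3 and 4 were above every untreated tumor, and Minnelide tumor 2 was below untreated tumors 2 to 4. The means were 7.98 ± 3.85% and 14.3 ± 5.18% (SD, n = 4 each), a difference of 6.33 points (two-sided exact permutation test over tumors, p = 0.1143, smallest possible 0.02857).

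**Figure D2:**
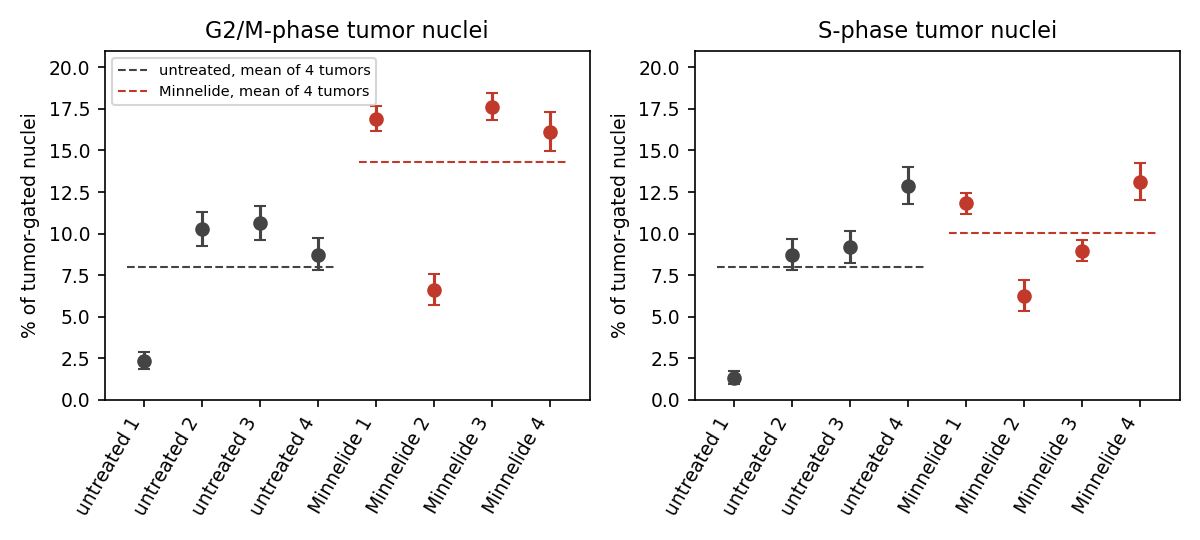
Share of tumor-gated nuclei in G2/M phase (left) and in S phase (right) for each tumor, in percent, with exact 95% binomial intervals that cover counting error only, and dashed lines at the group means. Minnelide tumors 1, 3 and 4 lie at 16.1% to 17.6% in the left panel, above all untreated tumors, and Minnelide tumor 2 at 6.59%.

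With Minnelide tumor 2 left out, the difference was 8.90 points and the exact permutation p was 0.02857, the smallest possible. That tumor was the only one of its group to overlap the untreated tumors, so its removal fixed this p and tests nothing further. With any other tumor left out, the exact permutation p was 0.1143 to 0.2571. Thinned to 1000 UMIs, the means were 5.38% and 8.52%, the difference fell to 3.14 points and the exact permutation p was 0.2. The exact 95% binomial interval (Clopper-Pearson) of a single tumor was 1.86% to 2.90% in untreated tumor 1 and 16.8% to 18.5% in Minnelide tumor 3, so counting error was smaller than the spread between tumors.

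S-phase nuclei were counted among the other tumor nuclei by 10 replication genes (Brip1, Pola1, Atad2, Hells, Dtl, Clspn, Rrm2, Mcm3, Mcm6 and Gins2), with the same thresholds. Their share was 8.01 ± 4.85% untreated and 10.0 ± 3.06% with Minnelide (exact permutation p = 0.5143). The ratio of G2/M-phase to S-phase nuclei ran from 0.679 to 1.82 in untreated and from 1.06 to 1.97 in Minnelide tumors (exact permutation p = 0.4571). Of the G2/M-phase nuclei, 818 also passed the S-phase gate, which was 15.5% per untreated and 15.8% per Minnelide tumor on average. The tumor-gated share of all filtered nuclei was 56.4 ± 14.7% and 70.5 ± 22.8% (exact permutation p = 0.3429). Among nuclei under the tumor gate, the share past the cycling gate was 4.70 ± 2.75% and 7.61 ± 4.44% (exact permutation p = 0.2857).

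Beyond the rule's genes, 72 of 73 genes of the 4 mitotic lists were higher in G2/M-phase than in the remaining tumor nuclei and past the threshold given below. Counts were summed per tumor and class and fitted with edgeR's quasi-likelihood test, tumor as a block. The classes were cut from the same nuclei, so these fits describe how regularly a difference recurs over 8 tumors and are no independent test of the class, and no p is given for them. A gene is called past the threshold at an adjusted p under 0.05. Against the remaining tumor nuclei, 818 of 12227 genes were higher (6.69%) and 909 lower (7.43%), with 129 at least 2-fold higher and 20 at least 2-fold lower. The 15 genes of the rule and the 10 of the S-phase gate used for the second class are left out of these counts.

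All 17 measured mitotic kinases and cyclins were past the threshold and higher, with a median log2 difference of 1.36 beside -0.01 over all genes tested. Cit, the citron kinase of the cleavage furrow, averaged 292 ± 47.9 CPM in G2/M-phase and 126 in remaining nuclei, a log2 difference of 1.28 ± 0.13 (SE). Ttk, the spindle checkpoint kinase MPS1, reached 132 against 43.0 CPM, and Ccnf, the cyclin of an SCF ubiquitin ligase, 116 against 32.2 CPM. All 3 were higher in 8 of 8 tumors.

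Of 24 kinetochore and centromere genes, 23 were higher and past the threshold, with a median of 1.33, and Zwint, a partner of the ROD-ZW10 complex, was not, at 0.16. Knl1, the scaffold that recruits the checkpoint proteins, was among the genes with the widest difference. In untreated tumors 1 to 4 it stood at 501, 378, 314 and 238 CPM in G2/M-phase nuclei and at 33.7, 92.9, 108 and 124 in the remaining ones. In Minnelide tumors 1 to 4 it stood at 339, 274, 352 and 363 CPM against 152, 88.4, 122 and 120. The classes did not overlap, and the log2 difference was 1.76 ± 0.21. Cenpp, of the constitutive centromere network, and Hjurp, the chaperone that loads the centromeric histone, were higher by 1.28 and 0.80.

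The 21 spindle motors and microtubule proteins were all higher and past the threshold, with a median of 1.57. Kif14, a motor of the central spindle, ran from 59.5 to 97.1 CPM in G2/M-phase nuclei and from 8.41 to 29.4 in the remaining ones, a log2 difference of 1.84 ± 0.15. Hmmr, which anchors spindle poles, ran from 58.9 to 186 against 10.7 to 51.4 CPM (log2 difference 1.82 ± 0.22). Kif23, the motor of centralspindlin, was higher by 1.75 ± 0.17, Kif15 by 1.54 ± 0.15 and the chromokinesin Kif4 by 1.70 ± 0.20. Ckap5, whose promoter is shown above, was the most abundant of the list at 393 ± 36.6 against 224 CPM, with a smaller difference of 0.83 ± 0.06.

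All 11 cytokinesis genes were higher and past the threshold, at a median of 1.45. Depdc1b, a regulator of RhoA, showed the widest difference among the named genes, 1.85 ± 0.13, with 41.6 to 82.9 CPM against 5.51 to 27.5. Its paralog Depdc1a was higher by 1.75 and Cep55, which recruits the abscission machinery to the midbody, by 1.72. Diaph3, a formin, was the most abundant of the list, at 499 ± 93.6 against 194 CPM. Ect2, the exchange factor that activates RhoA at the furrow, was higher by 1.37 and the centriole gene Stil by 1.02. Parpbp, an inhibitor of recombination, and Neil3, a DNA glycosylase, complete the 10 widest positive differences at 1.75 and 1.71.

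Of 13 condensin and chromatin genes, 12 were higher and past the threshold at a median of 0.76, led in abundance by the heterochromatin protein Cbx5 (log2 difference 0.44 ± 0.08) and the condensin subunits Smc4 (1.08 ± 0.07) and Smc2 (1.10 ± 0.13), and the cohesin subunit Smc3 did not pass. Of 14 genes of the anaphase-promoting complex and mitotic exit, 10 were higher and past the threshold at a median of 0.32. The activator Cdc20 was higher by 1.37 ± 0.16, while the abundant core subunits Anapc1, Anapc5 and Cdc27 differed by 0.24, 0.13 and 0.33, and Anapc5 did not pass, nor did Anapc1 without untreated tumor 3 (0.22). Of 16 transcription factors of the cell cycle, 9 passed, at a list median of 0.53, among them Foxm1 (1.32 ± 0.16), Mybl2 (0.62 ± 0.15) and Mybl1 (0.62 ± 0.12), and the abundant E2f3 and Tfdp2 did not, at 0.24 and 0.03.

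Genes of DNA repair, replication and G1 were read in the same fit. Of 14 recombination and Fanconi genes, 12 were higher and past the threshold at a median of 0.82, among them the helicase Blm (0.81), Brca1 (0.80) and Rad51b (0.55). Of 28 replication genes outside the S-phase gate, 10 were higher and past it at a median of 0.21, led by the repair polymerase Polq (1.23 ± 0.15) and Rrm1, a ribonucleotide reductase subunit (0.63), and Prim2, a primase subunit, did not pass at 0.21. Among 14 G1 cyclins and CDK inhibitors, 6 were higher and 2 lower past the threshold. The inhibitor Cdkn2c was higher by 1.08 ± 0.13, and Ccnd3 and Cdk6, a G1 cyclin and its kinase, were lower in 8 of 8 tumors, by -0.40 ± 0.07 and -0.72 ± 0.12. Ccnd2, the most abundant of the list at 1958 ± 288 CPM, differed by 0.15 and did not pass, and Cdkn1c differed by 0.14. Ccnd1 passed at 0.25 ± 0.07, a call kept in 12 of 20 alternatives. It did not pass with Minnelide tumor 2 or untreated tumor 2 or 3 left out (0.24, 0.26 and 0.20), at a tumor score of 120 (0.21), at 3000 UMIs or more (0.27), without the 5% of nuclei with most UMIs (0.21), against remaining nuclei with 0 cycling and S-phase UMIs (0.12) or without nuclei carrying 2 markers of another type (-0.02).

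**Figure D3:**
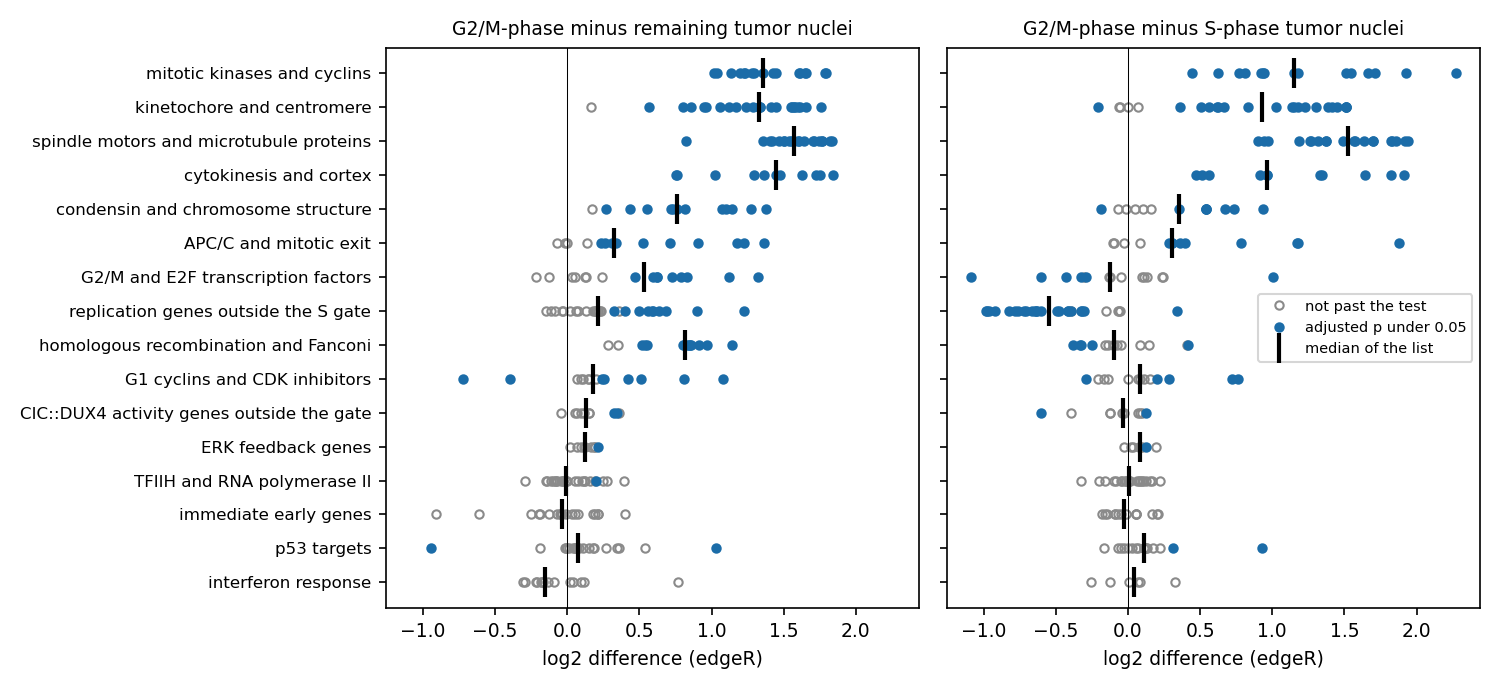
Log2 difference of each gene of 16 lists (rows) between G2/M-phase nuclei and the remaining tumor nuclei (left) or S-phase tumor nuclei (right), with filled points past an edgeR adjusted p of 0.05, open points not past it, and bars at the list medians. The spindle list lies right of 0 in both panels, with medians of 1.57 and 1.53, and the replication list moves from a median of 0.21 to -0.55.

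The genes of the fusion's program differed little between G2/M-phase and remaining tumor nuclei. Of 10 CIC::DUX4 activity genes outside the gate, 2 were past the threshold, Vgf and the polymerase gene Pole. Vgf, a secreted neuropeptide precursor, averaged 2013 ± 1060 CPM in G2/M-phase and 1643 in remaining nuclei, a log2 difference of 0.34 ± 0.06, which turned to -0.24 when only remaining nuclei with 0 cycling and S-phase UMIs were compared. Muc5ac, a mucin, differed by 0.05 ± 0.05 with 2304 ± 1115 CPM. Of 9 ERK feedback genes, Spry4 alone passed, and Spred2, Spred1 and Spred3 differed by 0.10, 0.07 and 0.16.

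Genes of the machinery that Minnelide acts on were compared in the same way. Of 25 TFIIH and RNA polymerase II genes, Polr2a, the largest subunit of the polymerase, passed at 0.20 ± 0.05, a call kept in 14 of 20 alternatives. It did not pass with untreated tumor 2, untreated tumor 3 or Minnelide tumor 4 left out (0.20, 0.20 and 0.18), at a tumor score of 120 (0.15), at 3000 UMIs or more (0.16) or without nuclei carrying 2 markers of another type (0.37). The CDK-activating kinase genes Cdk7 and Mnat1 differed by -0.14 and -0.08. None of 20 immediate early genes and none of 14 tested interferon genes passed, and 2 of 20 p53 targets did, Gtse1 (1.03 ± 0.21), itself a G2 gene that binds microtubules, and the death receptor gene Fas, which was lower (-0.94 ± 0.22). The most abundant of these lists differed little, with Nr4a1 at -0.03, Jund at 0.21, Fos at -0.04, Mdm2 at 0.05, Sesn1 at 0.04, Plk2 at -0.00, Rnf213 at -0.17 and Stat2 at 0.04.

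The 10 named genes lowest in G2/M-phase nuclei were taken from those lower in every tumor, and 5 of them lost the threshold against remaining nuclei with 0 cycling and S-phase UMIs. They were Bmp6 (a bone morphogenetic protein, -0.85 ± 0.18), Slc9a9 (a sodium/proton exchanger, -0.78), Glis3 (-0.77), March3 (-0.75), Parp8 (-0.75), Nr3c2 (the mineralocorticoid receptor, -0.74 ± 0.14), Rnf150 (-0.74), Mitf (a bHLH factor, -0.73), Ppm1h (a phosphatase, -0.73) and Akap6 (an anchor of protein kinase A, -0.72). Slc9a9, Glis3, Rnf150, Mitf and Ppm1h were the 5. Bmp6 and Nr3c2 were highest in untreated tumor 1, at 286 and 790 CPM in its remaining nuclei and 150 and 262 CPM in its G2/M-phase nuclei. Neither gene passed 183 CPM in any other tumor, and Bmp6 reached at most 55.1 CPM there. The mean of Bmp6 in remaining nuclei, 51.9 CPM, was just above the 50 CPM needed to be named. Markers of other types moved in part with this comparison. The macrophage genes Adgre1 and Ptprc, the endothelial genes Erg and Flt1 and the T-cell gene Skap1 were lower past the threshold, and Col1a1, Myh4 and Rgs5, of fibroblast, muscle and pericyte lists, were higher. Their part in the other differences was not tested.

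Compared with S-phase tumor nuclei, 65 of the 70 tested genes of the 4 mitotic lists were higher past the threshold and 1 was lower, while 22 of 28 replication genes were lower. Of 9133 genes tested, 481 were higher (5.27%) and 502 lower (5.5%) in G2/M-phase nuclei. All 15 tested mitotic kinases and cyclins, all 20 spindle genes and all 11 cytokinesis genes were higher and past the threshold, with medians of 1.15, 1.53 and 0.97 beside -0.00 over all genes. Aurka, the kinase of spindle poles, was higher by 2.27 ± 0.14, at 43.9 ± 14.3 against 8.25 CPM. Of 13 condensin and chromatin genes 7 were higher and Ncapg2, a condensin II subunit, was lower, and of 13 anaphase-promoting complex and mitotic exit genes 9 were higher. The 5 widest positive differences among abundant genes were Kif14 (1.92 ± 0.10), Depdc1b (1.91 ± 0.11), Kif23 (1.83 ± 0.10), Hmmr (1.83 ± 0.11) and Depdc1a (1.82 ± 0.12).

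Of the 28 replication genes, 22 were lower and 1, Polq, higher past the threshold, with a median of -0.55. Ccne2, the cyclin of S-phase entry, ran from 24.8 to 75.3 CPM in G2/M-phase nuclei and averaged 45.6 ± 14.2 against 90.1 CPM in S-phase nuclei, a log2 difference of -0.97 ± 0.08. Lig1, the ligase of Okazaki fragments, was lower by -0.92 ± 0.09, and Prim2 averaged 116 against 215 CPM. Wnt5b (-0.84 ± 0.12) and Zfp367 (-0.83 ± 0.09) were also among the 5 lowest. Genes of this choice had to be lower in every tumor.

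The transcription factors divided between the phases. Foxm1 was higher in G2/M-phase nuclei by 1.00 ± 0.13, while E2f1, E2f7, Mybl2, Tfdp1 and Tfdp2 were lower past the threshold, Mybl2 by -0.61 ± 0.12. Of 14 recombination and Fanconi genes, Fancd2 was higher and 4 were lower past the threshold, among them Brca2, Rad51b and Rad54l. Among the centromere genes 19 were higher, and Kntc1, of the checkpoint complex with ZW10, was lower. None of the 25 tested markers of macrophages, endothelium, fibroblasts, myocytes and pericytes passed in this comparison.

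The summed level of the 73 mitotic genes outside the rule shows both class differences in every tumor. In G2/M-phase nuclei it ran from 5755 CPM in untreated tumor 4 to 9043 in untreated tumor 1, and from 6998 to 7702 in the Minnelide tumors. The remaining tumor nuclei of untreated tumor 1 held 1437 CPM, and those of the other 7 tumors 2675 to 3641. S-phase nuclei lay between, at 3517 to 3869 CPM. The ratio of G2/M-phase to remaining nuclei reached 6.29 for untreated tumor 1, against 1.80 to 3.04 elsewhere.

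**Figure D4:**
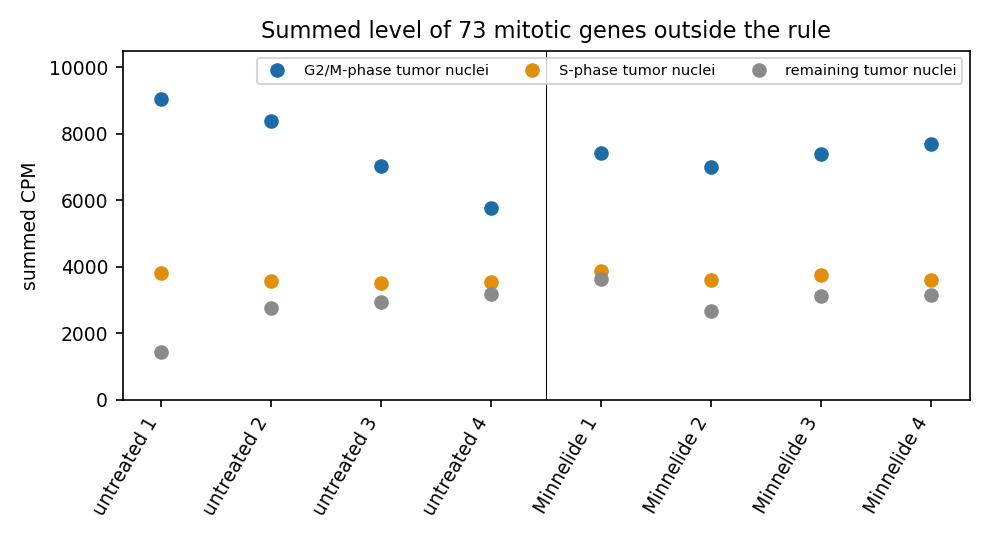
Summed CPM of 73 mitotic genes outside the rule in G2/M-phase (blue), S-phase (orange) and remaining (grey) tumor nuclei, with 1 point per tumor and class. The blue points run from 5755 to 9043 CPM, above both other classes in all 8 tumors, and the lowest grey point is untreated tumor 1 at 1437 CPM.

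Within G2/M-phase nuclei, the question of the design is whether Minnelide changed their transcripts. No gene passed. Of 9415 genes tested, 0 had an edgeR adjusted p under 0.05 (0.0%), 558 fell under 0.05 before adjustment, and the DESeq2 fit passed 2 higher and 14 lower genes, 16 together. The 73 mitotic genes outside the rule had a median log2 difference of 0.08 (Minnelide minus untreated), with 44 above and 29 below 0, beside 0.00 over all genes. The fitted differences of the 73 genes ran from -0.53 to 0.47.

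The 5 genes with the smallest p and a higher level under Minnelide were Alkbh3, Matn2, Trim9, Ptchd4 and Mdk, each at an edgeR adjusted p of 0.7684. Alkbh3, a demethylase of alkylated nucleic acids, stood at 35.7, 37.4, 35.1 and 42.9 CPM in untreated and 58.1, 57.9, 54.4 and 54.7 in Minnelide tumors (log2 difference 0.66 ± 0.15). Trim9, a ubiquitin ligase of neurons, stood at 652, 650, 501 and 507 against 696, 1191, 1140 and 961 CPM (0.89 ± 0.22). Mdk, the growth factor midkine, stood at 7.92, 50.6, 27.8 and 12.5 against 136, 61.2, 100 and 75.8 CPM (1.87 ± 0.48). The groups did not overlap for any of these 3, which were chosen by p, and 0.935% of all genes tested were higher without overlap. Matn2, a matrix protein, and Ptchd4 differed by 0.61 and 1.41.

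The 5 lower genes with the smallest p were Dock8, Maf, Irf4, Tnfsf11 and Calm2, at the same edgeR adjusted p of 0.7684. Dock8, an exchange factor of leukocytes, stood at 105, 53.5, 36.7 and 76.8 CPM in untreated and 23.2, 21.5, 22.2 and 17.0 in Minnelide tumors (log2 difference -1.55 ± 0.28). Irf4, a transcription factor of lymphocytes, stood at 127, 30.8, 13.9 and 21.4 against 2.94, 1.65, 2.99 and 4.93 CPM (-3.65 ± 0.69). Calm2, a calmodulin gene, stood at 262, 219, 230.3 and 252 against 139, 147, 154 and 151 CPM (-0.61 ± 0.12). The groups of these 3, chosen by p as well, did not overlap, and 3.04% of all genes tested were lower without overlap. Maf and Tnfsf11, the RANKL gene, differed by -1.55 and -1.67. Dock8, Maf, Irf4 and Calm2 passed in DESeq2 (adjusted p = 0.004294, 0.004982, 0.0005718 and 0.005268), as did Trim9 (DESeq2 adjusted p = 0.04924).

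Markers of other cell types were below 0 at the median under Minnelide in the macrophage, endothelial, myocyte and fibroblast (-0.32) lists and above it in the pericyte list (0.32), with 0 genes past the edgeR threshold in each. Summed macrophage markers in G2/M-phase nuclei were 487, 314, 142 and 207 CPM in untreated and 145, 72.8, 186 and 86.1 in Minnelide tumors, and all 5 that were tested had a lower fitted level under Minnelide, at a median of -1.14. The summed groups overlapped. Of 6 endothelial markers, 5 had a lower fitted level, at a median of -0.91, and their sums were 439 to 1989 CPM in untreated and 316 to 649 in Minnelide tumors. All 6 myocyte markers had a lower fitted level, at a median of -0.96, and their sums overlapped, at 1825 to 6996 and 518 to 6913 CPM. Ptprc, the pan-leukocyte marker CD45, ran from 26.8 to 53.5 CPM in untreated and 14.3 to 21.5 in Minnelide tumors. The 6 T and NK markers summed to 2.20 to 21.8 and 2.99 to 8.52 CPM. Their part in the lower levels of Dock8, Maf and Irf4 was not tested.

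Panel genes of the cell cycle and of the drug's targets were measured in the same fit. Cdk1 stood at 99.0, 96.8, 90.6 and 42.9 CPM in untreated and 95.04, 61.2, 98.5 and 100.4 in Minnelide tumors, a log2 difference of 0.20 ± 0.26. Aurka (-0.18 ± 0.26), Plk1, the kinase of centrosome maturation (0.19 ± 0.47), Cdc20 (-0.34 ± 0.25) and Foxm1 (-0.10 ± 0.17) had differences of both signs, and none passed. Plk1 turned to -0.09 without untreated tumor 1.

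Ercc3, which encodes the protein triptolide binds, stood at 13.9, 13.9, 14.7 and 17.9 CPM in untreated and 11.7, 9.92, 11.9 and 9.41 in Minnelide tumors (log2 difference -0.38 ± 0.22, edgeR adjusted p = 0.8482). Its groups did not overlap, as was the case for 3.04% of all genes in the lower direction. The Ercc3 levels rest on few UMIs in the smallest samples, with 80 G2/M-phase nuclei in untreated tumor 1 and 183 in Minnelide tumor 2. Polr2a differed by -0.11 ± 0.15, Cdkn1a, the p53-driven CDK inhibitor, by -0.31 ± 0.32, and Myc by -0.39 ± 0.34. Of the fusion's program, Vgf stood at 1676, 1708, 1476 and 982 against 3269, 1371, 4045 and 1577 CPM (0.89 ± 0.36), with Minnelide tumors 2 and 4 inside the untreated range. Ccnd2 and Dusp6, an ERK phosphatase, differed by 0.19 ± 0.24 and 0.09 ± 0.23.

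**Figure D5:**
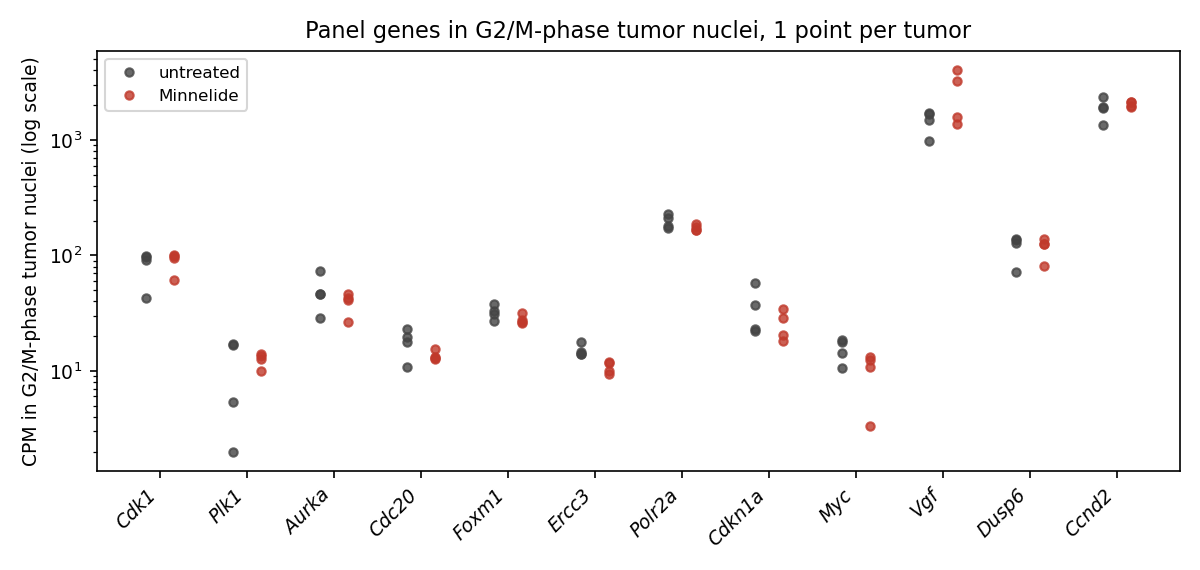
Level in CPM (log axis) of 12 panel genes in G2/M-phase tumor nuclei, with 1 point per tumor, untreated in grey and Minnelide in red. The groups overlap for every gene but Ercc3, which lies at 13.9 to 17.9 CPM untreated and 9.41 to 11.9 with Minnelide. Its levels rest on few UMIs in the smaller samples.

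In 2 lists of response genes nearly all tested members leaned the same way. Immediate early genes summed to 1004, 383, 372 and 430 CPM in untreated and 308, 344, 316 and 339 in Minnelide tumors, 14 of 15 tested genes had a lower fitted level under Minnelide, and the median was -0.64. Jun was the gene of this list whose groups did not overlap, at 93.1, 32.3, 23.7 and 60.7 against 14.7, 16.5, 15.8 and 11.7 CPM. Interferon genes summed to 307, 211, 265 and 243 against 165.2, 165.4, 181 and 171 CPM, all 7 tested had a lower fitted level, and Stat2, Irf9 and Parp14 did not overlap. Over all genes tested, 3.04% were lower without overlap. None of these genes passed the edgeR threshold. In the remaining tumor nuclei the interferon sums were 494, 252, 271 and 228 against 174, 175, 204 and 180 CPM. The immediate early sums there were 1012, 421, 367 and 446 against 288, 340, 323.5 and 391 CPM. Both lists thus leaned the same way outside G2/M phase.

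The step from other tumor nuclei to G2/M phase was compared between the groups as a difference of differences. Of 12924 genes, 0 passed in edgeR (0.0%), 559 had an unadjusted p under 0.05, and DESeq2 called 0 with 253 under an unadjusted 0.05. The mitotic genes leaned one way. Their fitted step was smaller under Minnelide for 71 of 73 genes, with a median of -0.46 on the log2 scale beside 0.01 over all genes. Over all 12924 genes, 6774 had a larger fitted step. The ratio of summed mitotic CPM given above was 6.29 in untreated tumor 1, with 80 G2/M-phase nuclei, and 1.80 to 3.04 in the other 3 untreated tumors, against 2.04 to 2.62 with Minnelide. The range of those 3 untreated tumors held all the Minnelide tumors, and untreated tumor 1 alone lay apart.

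The genes with the smallest p were Cemip (1.51 ± 0.35), Ppm1l (0.96 ± 0.22) and Trp53i11 (0.68 ± 0.17) on the higher side and Myh11 (-1.53 ± 0.33), Tuba1b (-0.69 ± 0.16) and Zmat4 (-0.84 ± 0.20) on the lower, all at an edgeR adjusted p of 0.9798. Tuba1b, an alpha tubulin, stood higher in G2/M-phase than in remaining nuclei in all 8 tumors, at 51.5, 35.2, 58.8 and 23.2 against 26.2, 19.1, 24.9 and 13.4 CPM in untreated and 28.7, 16.5, 34.2 and 24.7 against 24.9, 9.62, 26.5 and 18.5 in Minnelide tumors. Its reads can be shared with near-identical alpha tubulin genes.

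Single tumors also stood apart in genes of their G2/M-phase nuclei. For each tumor the 3 genes were taken whose level in G2/M-phase nuclei exceeded that of any other tumor by the widest ratio, which makes their levels a description. In untreated tumor 1 they were the lymphatic genes Lyve1 (323 CPM against at most 3.31 elsewhere) and Mmrn1 (220 against 2.24), and Sult1a1 (194 against 5.13). In untreated tumor 2 they were Ccnb3 (60.9 against 3.96), a cyclin of meiosis, and the bone and osteoclast genes Ibsp (224 against 51.1) and Ctsk (813 against 246). Untreated tumor 3 had the homeobox gene Hoxb3 (59.6 against 21.8), Pdzrn4 (75.9 against 38.1) and the peptidase Mme (353 against 190 CPM), and untreated tumor 4 had the catenin Ctnna3 (114 against 41.6), Grxcr1 and Aatk.

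Among the Minnelide tumors, tumor 2 held the widest gaps, with Car10, a carbonic anhydrase-like protein of neurons, at 890 CPM against at most 27.7 elsewhere, Fgf13 at 895 against 96.4 and the LIM-only factor Lmo3 at 117 against 8.98. Minnelide tumor 1 was marked by Ext2, which builds heparan sulfate (405 against 99.6), by Igf2 and by Alb. Minnelide tumor 3 was marked by Csmd3 (166 against 21.7), Myo5b and Spock3, and Minnelide tumor 4 by the leptin receptor Lepr (743 against 169) and by Ppfia2. All 24 genes were also highest in the same tumor among the remaining tumor nuclei. Lyve1 and Mmrn1 stood at 15.9 and 23.5 CPM in the remaining nuclei of untreated tumor 1, below their level in its 80 G2/M-phase nuclei, and the endothelial markers of that tumor are given above.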

How the data were processed

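Single-nucleus RNA was captured with a 3′ kit with on-chip multiplexing. The authors deposited 1 filtered matrix of raw UMI counts per tumor over 19059 features, made per the labels with bcl2fastq 2.20 and Cell Ranger 7.0.1 against mm39, while the file headers name Cell Ranger 9.0.1. Nuclei with under 1000 UMIs or 5% or more mitochondrial counts were removed here. No doublet caller was run, and the human part of the fusion has no feature. The members and gene lists were chosen with earlier results of these data known.

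Counts were summed per tumor and class (20 nuclei or more) and fitted with edgeR 4.0.16 (TMM scaling, quasi-likelihood test, Benjamini-Hochberg adjustment over all genes tested), with tumor as a block between classes. DESeq2 1.42.0 was an alternative. Shares were compared by two-sided exact permutation over 4 against 4 tumors. The labels do not say that the matrices come from separate animals, so p-values measure the spread between these samples. The edgeR fits between treatment groups and against remaining nuclei were tried on simulated counts. The changes there were large, and the spread between simulated tumors was below that of the real treatment comparison. That trial does not measure the power to find small differences. Named genes were the 3 most abundant of each list, the 10 (5 against S-phase) highest and lowest called differences with 50 CPM or more in the higher class and 1 direction in all tumors, the smallest p between treatment groups (5 each way, 3 for the difference of differences), a panel of 12 cell cycle and drug-target genes, and 3 genes marking each tumor. Alternatives covered thresholds, depth, scaling, low-count filters, other-type markers and each tumor left out. Intervals cover counting error only. Some named genes and 1 promoter are not reported here.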

Additional observations from a re-analysis of the deposited data

Results flagged for a closer look

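In 12 of 112 groups of 4 values examined, 1 tumor lay far from the other 3 of its group by Dixon's 95% criterion, which chance alone meets in about 1 of 20 groups. The share of G2/M-phase nuclei was 6.595% in Minnelide tumor 2 against 16.12% to 17.63% in the other 3. The median mitochondrial percentage of G2/M-phase over remaining nuclei was 1.154 in untreated tumor 1 against 0.9573 to 0.9781.

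Untreated tumor 1 also stood apart in summed CPM of ERK feedback genes (2734 against 3495 to 3612), immediate early genes (1004 against 371.5 to 430.4) and endothelial markers (1989 against 438.6 to 664.3), and in Irf4 (126.8 against 13.88 to 30.81 CPM). Minnelide tumor 2 stood apart in summed condensin genes (2206 against 2723 to 2827 CPM), myocyte markers (6913 against 518.1 to 1104 CPM) and Cdk1 (61.19 against 95.04 to 100.4 CPM). Minnelide tumor 4 had 1244 CPM of cytokinesis genes against 1350 to 1369. Untreated tumor 4, the shallowest library, had 42.86 CPM of Cdk1 against 90.64 to 99.04 and 71.43 CPM of Dusp6 against 128.2 to 138.6.

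Myh11, the smooth muscle myosin gene, was higher in G2/M-phase than in remaining nuclei in all 4 untreated tumors and lower in all 4 Minnelide tumors. The difference between the groups was -1.533 on the log2 scale, and it did not pass the edgeR interaction test (adjusted p = 0.9798).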

How the results depend on the processing

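The share difference stayed positive under every alternative, from 2.18 to 16.7 points (exact permutation p = 0.08571 to 0.2), and from 4.45 to 8.90 with 1 tumor left out (exact permutation p = 0.02857 to 0.2571). It reached 8.90 without Minnelide tumor 2, where removal of the only overlapping Minnelide tumor fixed the exact permutation p at its smallest possible value, 0.02857. Between treatment groups the count of genes was 0 in edgeR under each alternative run and 16 in DESeq2. Against remaining nuclei the count of 1727 became 967 at a tumor score of 120, 977 against remaining nuclei without cycling or S-phase UMIs (fewer genes tested) and 74 without nuclei carrying 2 markers of another type, where 3 tumors were left, and 1188 to 2121 with 1 tumor left out. Against S-phase nuclei 983 became 5 in that marker setting and 690 to 1020. The marker setting could not be fitted for the treatment comparisons. The difference of differences gave 0 throughout. Library totals moved the treatment median to -0.09. No paired analysis of the treatment groups was possible, because the labels link no untreated tumor to a Minnelide tumor. The class comparisons were paired within each tumor by the tumor block.

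Of the values for named genes, 36 changed sign, all of them for genes not past the threshold except Ccnd1 and Vgf, and the cause was not tested. Without nuclei carrying 2 markers of another type, E2f3 was -0.0396, Tfdp2 -0.58, Ccnd1 -0.0216, Cdkn1c -0.11, Muc5ac -0.21, Nr4a1 0.0393 and Jund -0.27. At a tumor score of 120, Tfdp2 was -0.0133, Muc5ac -0.00776, Plk1 -0.16 and Dusp6 -0.013. At a cycling score of 30, Tfdp2 was -0.11, Plk2 0.0406 and Dusp6 -0.0535. At 3000 UMIs or more, Tfdp2 was -0.00477, Sesn1 -0.00396, Stat2 -0.000932 and Dusp6 -0.0744. Against remaining nuclei with no cycling or S-phase UMIs, Cdkn1c was -0.13, Muc5ac -0.27, Vgf -0.24, Mnat1 0.038, Jund -0.0278 and Mdm2 -0.14. Without the 5% of nuclei with most UMIs, Muc5ac was -0.046. With library totals, Dusp6 was -0.00573. With 1 tumor left out at a time, the range was for Nr4a1 from -0.0764 to 0.0238, Fos from -0.0859 to 0.0296, Mdm2 from -4.33e-05 to 0.0787, Sesn1 from -0.00918 to 0.17, Plk2 from -0.03998 to 0.035, Stat2 from -0.0191 to 0.0946, Plk1 from -0.0914 to 0.52 and Dusp6 from -0.0757 to 0.22.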
